A study of Saccharomyces cerevisiae and Saccharomyces cerevisiae x Saccharomyces paradoxus with 20 samples.

Results

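The genes described here encode proteins of the cytosolic ribosome of yeast. Members were taken from a list of 60 locus tags, and each was looked up in the RNA tables of the cross between UWOPS05_217_3 and CBS432 and in the FAIRE tables of all strains and hybrids. RNA counts were listed for 9 of the 60 genes, among 4995 genes in those tables. A nucleosome-free region (NFR), the open stretch of promoter DNA, overlapped the 300 bp upstream of the start codon for 42 of the 60 genes. These made up 45 of 3498 NFRs, because RPL19A, RPL13B and RPS1B had a second region that lay farther from the start codon. Both measurements existed for 7 genes, 35 genes had an NFR only, and RPL28 and RPL10 had RNA counts only. The other 16 genes had neither and have no values here, among them RPL2B, RPL4A, RPL4B, RPL7A, RPL8B, RPL9B, RPL11B, RPL14A, RPL25, RPL30, RPL32, RPS0B, RPS6A, RPS9A and RPS31.

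The ribosome is built from a large and a small subunit, and its proteins are made in near-equal amounts. In growing yeast the genes for these proteins are among the most heavily transcribed by RNA polymerase II. Their promoters are known for wide nucleosome-depleted regions, many of them bound by Rap1 together with Fhl1 and Ifh1, and they respond together to nutrients through the TOR and protein kinase A pathways. Many of the genes are present as a pair of near-identical copies left by an ancient genome duplication, while others are single-copy and essential.

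The samples were the haploid S. cerevisiae strains UWOPS05_217_3, a wild isolate, and DBVPG1373, a wine strain, the haploid S. paradoxus strain CBS432, and the diploid hybrid of each S. cerevisiae strain with CBS432. All were grown to log phase in rich medium, and each of the 10 combinations of strain and assay had 2 replicates. FAIRE recovers DNA that is not cross-linked to nucleosomes and so reads chromatin accessibility, and RNA-Seq reads transcripts. Each strain is 1 isolate and each hybrid 1 cross, so a difference between strains stands for those strains. CBS432 carries the organism S. cerevisiae in its labels, but S. paradoxus in the study's design text, which was followed here. A hybrid carries both genomes in 1 nucleus, so the ratio of its alleles reads differences in cis, and the ratio between haploids minus the ratio between alleles reads differences in trans. All log2 ratios are S. cerevisiae over S. paradoxus, and a feature was called at an adjusted p below 0.05 in edgeR's quasi-likelihood test over all genes or NFRs.

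Table totals were between 51389633 and 106845771 counts for haploid RNA, between 36188856 and 54971715 for each allele in hybrid RNA, between 2561228 and 4198250 for haploid FAIRE and between 1339393 and 2036883 for each allele in hybrid FAIRE. Counts were summed over sites that differ between the genomes, so their number per gene is not known, and a level is compared here only between tables for the same gene or NFR unless a length is given. Levels are given as CPM, counts per 1000000 of the table total, or of the mean of both allele totals for a hybrid library. As a check of the ploidy labels, all 6 haploid-specific genes in the RNA tables were lower in every hybrid table than in every haploid table, with a summed level of 1480 to 1676 CPM in haploids and 110 to 156 in the hybrids.

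At several of the 9 genes the RNA count did not follow the size of the table. The CBS432 replicates had totals that differed 2.08-fold, and the median gene differed 2.04-fold between them. RPL10, whose protein joins the large subunit late in its maturation beside the peptidyl transferase centre, had 105729 and 120341 counts in these replicates, a ratio of 1.14. The ratio was 1.29 for RPS20 and 1.33 for RPS12. Among all genes these 3 ratios were at percentiles from 0.561 to 1.12. The ratio was 1.70 for RPS13, 1.74 for RPL28 and 1.80 for RPL5. RPP0 at 2.44 and RPL6B at 2.47 went the other way. In the 3 tables with the largest totals, RPS20 had 31429, 32053 and 32082 counts, while the totals of those tables ran from 78357206 to 106845771. RPS12 had more counts per bp than any other of the 4995 genes, and the ranks were 13 for RPP0, 14 for RPL10 and 201 for RPL6B. For the 100 genes with the most counts per bp, the median ratio between the CBS432 replicates was 2.18. Between the UWOPS05_217_3 replicates, whose totals differed 1.21-fold, RPL10, RPS12 and RPS20 had ratios of 1.08, 1.08 and 1.02, at percentiles from 12.4 to 24.2. The cause was not tested.

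**Figure D1:**
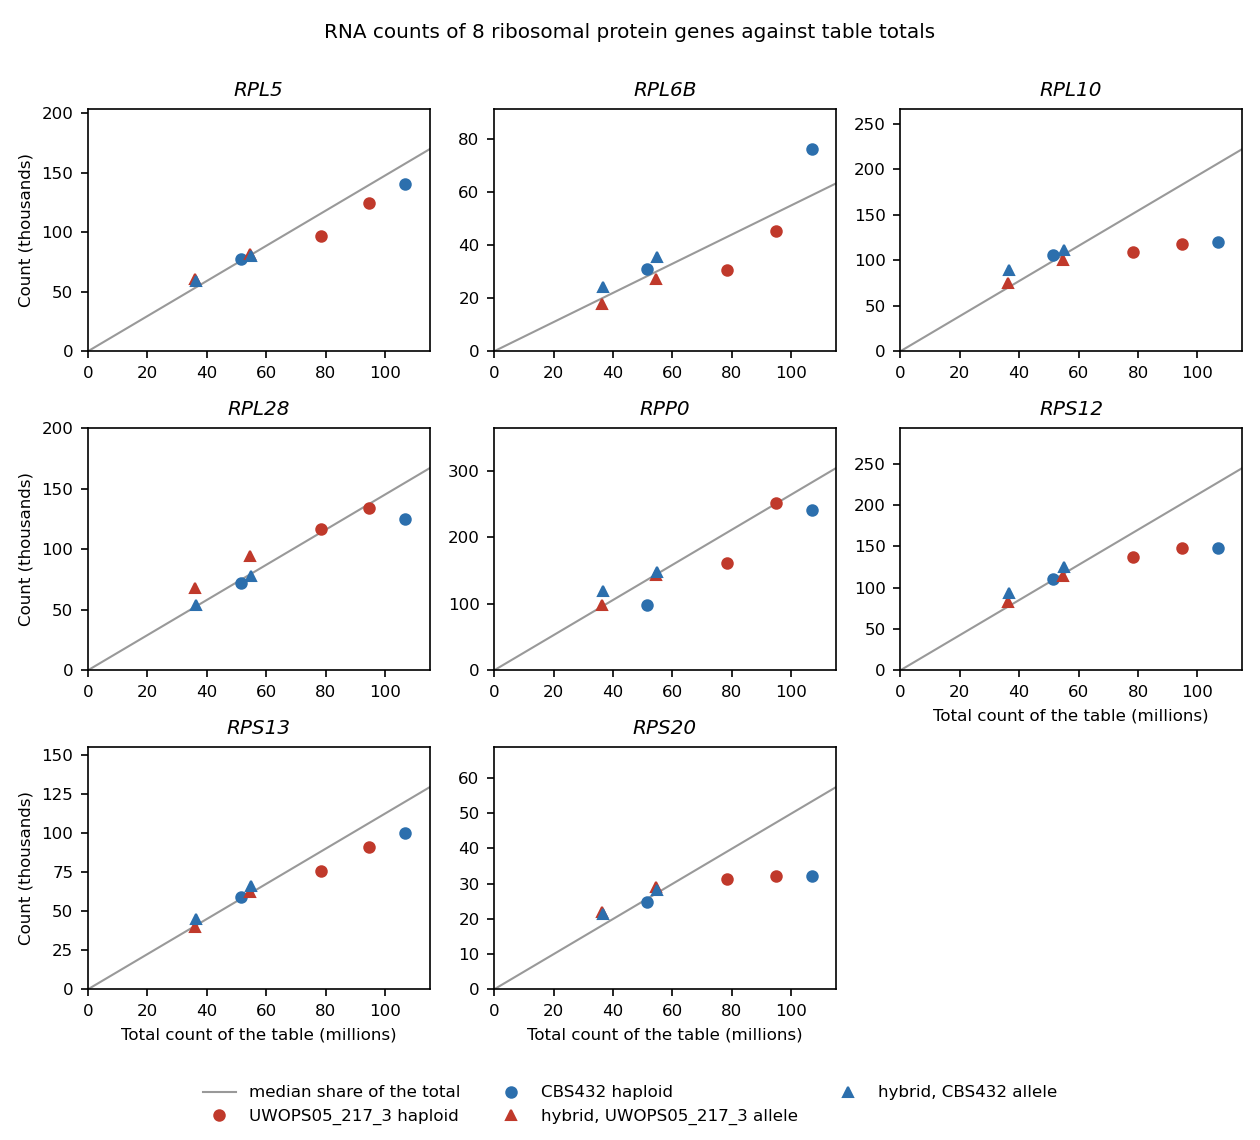
Count of 8 of the 9 genes against the total count of the table in 4 haploid tables (circles) and 4 allele tables of 2 hybrid libraries (triangles). The grey line is the median share of the total over the 8 tables. RPL10, RPS12 and RPS20 flatten at large totals, and RPS20 stays between 31429 and 32082 counts in the 3 largest tables.

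Within the hybrid, both alleles came from 1 library, and 7 of the 9 genes differed between alleles, 2 with more counts from the S. cerevisiae allele and 5 with fewer. Over all genes tested, 68.6% were called in this comparison. The median absolute log2 was 0.16 for the 9 genes and 0.30 for all genes. Every one of the 9 ratios had the same sign in both hybrid libraries.

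RPL6B (YLR448W, chromosome XII, 1028854 to 1029768), a large-subunit protein with a second copy in the genome, had the largest allele difference. Its S. cerevisiae allele had 27188 and 17598 counts in the 2 libraries, and its S. paradoxus allele had 35631 and 24325. The S. cerevisiae allele was lower in both, by a log2 of -0.43 ± 0.04 (SE, n = 2 libraries, edgeR, adjusted p = 5.81e-23). RPL6A, its near-identical copy, is not listed in the RNA tables, and reads shared between the copies could have been lost or assigned to either.

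RPL28 (YGL103W, chromosome VII, 310967 to 311927), the large-subunit protein altered in cycloheximide-resistant mutants, went the other way. The S. cerevisiae allele had 94412 and 68321 counts and the S. paradoxus allele 78139 and 54122, so the S. cerevisiae allele was higher in both libraries (log2 0.30 ± 0.02). A gene of the opposite strand, YGL102C, covers 422 of its 960 bp in these tables, and the counting was not stated to use strand. RPL10 (YLR075W, chromosome XII, 282927 to 283592) had 100627 and 74993 counts from the S. cerevisiae allele and 110859 and 89758 from the other, a log2 of -0.20 ± 0.02. YLR076C covers 407 of the 665 bp of RPL10, with the same limit.

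RPP0 (YLR340W, chromosome XII, 805887 to 806825) encodes the base of the stalk that recruits elongation factors to the large subunit. Its S. cerevisiae allele had 143959 and 98994 counts against 148691 and 119577, a log2 of -0.16 ± 0.02. The gap was -0.05 in the first library and -0.27 in the second, so its size differed more between libraries than for the other genes, and with DESeq2 this difference was not called. In the small subunit, RPS12 (YOR369C, chromosome XV, 1028194 to 1028625) had 114344 and 82925 counts from the S. cerevisiae allele against 125187 and 93962, a log2 of -0.16 ± 0.02. RPS13 (YDR064W), a protein that contacts the bridge between the subunits, was lower by a log2 of -0.13 ± 0.03. The allele ratios of RPL5 and RPS20 were not called. RPL5 (YPL131W), which binds 5S rRNA and carries it into the large subunit, had a log2 of 0.03 ± 0.02, and RPS20 (YHL015W), a small-subunit head protein, had 0.04 ± 0.04. Except for RPL6B and RPL28, each called difference was below 0.21 in log2.

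Between the haploids, 1 of the 9 genes was called, whereas 54.6% of all genes were. That gene was RPL6B. Its levels were 390 and 476 CPM in the UWOPS05_217_3 replicates and 600 and 712 in the CBS432 replicates, so the strains did not overlap. UWOPS05_217_3 was lower by a log2 of -0.61 ± 0.14 (edgeR, adjusted p = 0.0061, n = 2 replicates a strain). The other 8 genes had log2 ratios from -0.29 for RPL10 to 0.16 for RPP0. Their error was large: the median SE over the 9 genes was 0.16, against 0.11 for all genes, and the sign held in every pairing of replicates for 3 of the 9 (RPL6B, RPL28 and RPL5). RPL10 shows the size of this spread, with 1391 and 1241 CPM in UWOPS05_217_3 and 2057 and 1126 in CBS432, so that the CBS432 replicates enclosed both values of the other strain. Without CBS432 replicate 2, the library with the largest total, the log2 was -0.65 for RPL10, -0.40 for RPS20 and -0.47 for RPL6B. Without CBS432 replicate 1 it was 0.19 for RPL10, 0.26 for RPS20 and -0.75 for RPL6B. In that fit 5 genes that were lower in UWOPS05_217_3 had ratios above 0.

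In trans, 1 of the 9 genes was called, with 25.8% of all genes. RPP0 had a ratio between haploids of 0.16 ± 0.16 and a ratio between alleles of -0.16 ± 0.02, and the difference of these ratios was 0.32 ± 0.10 in log2 (edgeR, adjusted p = 0.0369). Its levels were 2053 and 2654 CPM in UWOPS05_217_3, 1921 and 2257 in CBS432, 2628 and 2723 for the S. cerevisiae allele and 2715 and 3289 for the S. paradoxus allele. Both the haploid ranges and the allele ranges overlapped. This call was absent with TMM scaling, where RPL6B was called in its place, without the replicate block (0 of 9), and without either hybrid library (0 of 9). When a haploid replicate was left out, the difference for RPP0 was 0.26 or 0.39. For RPL6B the ratios were -0.61 between haploids and -0.43 between alleles, and their difference of -0.17 ± 0.08 was not called (adjusted p = 0.142).

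**Figure D2:**
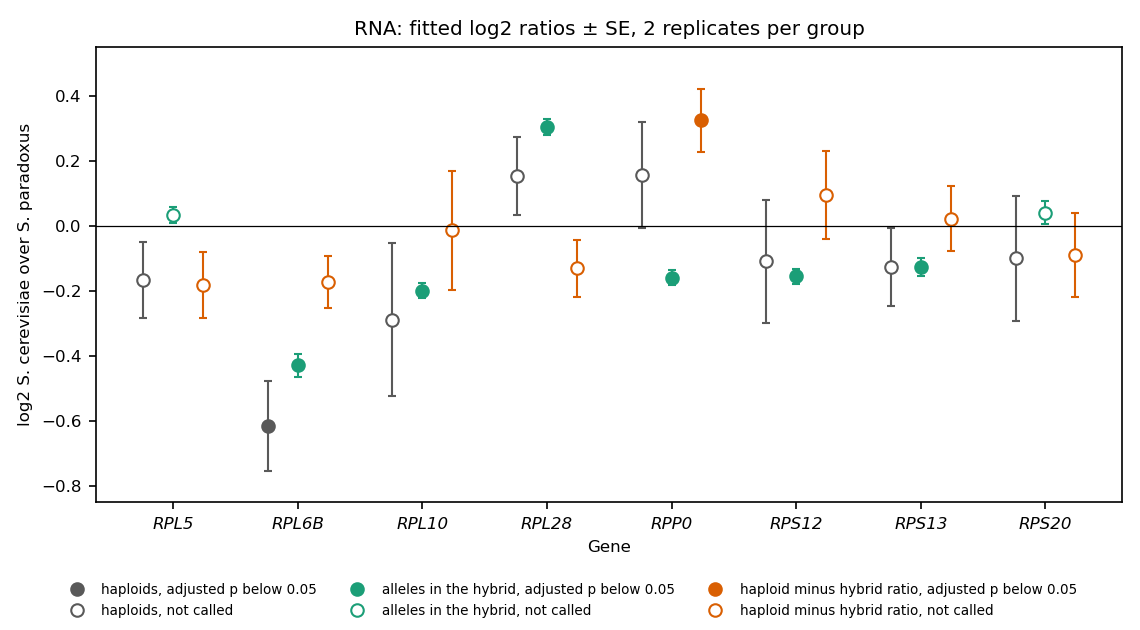
Fitted log2 ratios of RNA counts ± SE for 8 of the 9 genes: between haploids (grey, 2 replicates a strain), between alleles in the hybrid (green, 2 libraries) and the first minus the second (orange). Filled points have an adjusted p below 0.05. The allele ratios have the shortest error bars, and RPL6B lies below 0 in both the haploids and the hybrid.

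The 9 genes together took 1.04% and 1.06% of all RNA counts in UWOPS05_217_3 and 1.22% and 0.978% in CBS432. In the hybrid libraries they took 1.3% and 1.4% of S. cerevisiae allele counts, with 1.32% and 1.5% of S. paradoxus allele counts, above every haploid table. Hybrid tables also had the smaller totals, apart from CBS432 replicate 1, and within each genome the smaller hybrid table had the larger share. Ploidy, cross and table size therefore cannot be told apart for this difference. The order was not particular to the 9 genes. The 19 other ribosomal protein genes with RNA counts took 0.853% to 0.982% in the haploid tables and 0.999% to 1.03% in the hybrid tables. Between the CBS432 replicates the median ratio of counts of these 19 was 2.06, beside 2.08 for the totals. Gene by gene, the 4 hybrid levels lay above the 4 haploid levels for 2 of the 9, RPS20 among them. The share of all genes with this order was not counted, so the 2 cannot be set against a background.

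For the 19 other ribosomal protein genes with RNA counts, taken from the rest of the family, 4 were called between haploids, all lower in UWOPS05_217_3: RPP1A (log2 -0.50 ± 0.11), RPL22B (-0.49 ± 0.09), RPS29B (-0.41 ± 0.13) and RPS25B (-0.39 ± 0.11). RPP1A is a stalk protein that binds RPP0. In the hybrid 11 of the 19 were called, 6 higher and 5 lower from the S. cerevisiae allele. In trans 4 were called, all with a lower ratio between haploids than between alleles: RPL22B, RPS27A, RPL33B and RPL31B, with differences from -0.40 to -0.28. The median haploid log2 was -0.14 for these 19 genes and -0.13 for the 9 genes above, beside 0.01 for all genes. The sign for the 9 genes depended on the CBS432 library used. Their median was -0.38 without CBS432 replicate 2 and 0.19 without CBS432 replicate 1, beside 0.0033 and 0.0051 for all genes.

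Genes that regulate ribosomal protein transcription were called at shares near those of all genes. Of 23 such genes with RNA counts, 14 were called between haploids, 7 in each direction, which is 60.9% beside 54.6% of all genes, and 18 between alleles, 9 in each direction, which is 78.3% beside 68.6%. Their median absolute log2 was 0.36 between haploids, beside 0.35 for all genes. CKA1, a catalytic subunit of casein kinase 2, had 18.0 and 17.4 CPM in UWOPS05_217_3 and 89.3 and 82.5 in CBS432, and the same order held in the hybrid, with 14.4 and 17.4 against 44.98 and 73.5. Its log2 was -2.29 ± 0.11 between haploids and -1.86 ± 0.13 between alleles. SCH9, a kinase downstream of TOR, was lower in UWOPS05_217_3 (log2 -1.29 ± 0.11) and from its allele (-1.01 ± 0.04). CRF1, which represses these genes with Fhl1 when TOR is off, was higher by 1.05 ± 0.15 between haploids and by 1.92 ± 0.12 between alleles. DOT6, a repressor of ribosome biogenesis genes, was higher by 1.39 ± 0.15 and 0.99 ± 0.06. In trans 8 of the 23 were called (34.8%, beside 25.8% of all genes), and the largest was YAK1, a kinase that acts against growth signals, whose ratio was 0.57 between haploids and -0.31 between alleles (difference 0.89 ± 0.11). RAP1 itself was called in none of these comparisons, with log2 ratios of 0.06 ± 0.08, 0.01 ± 0.05 and 0.07 ± 0.09, and neither were HMO1, SFP1 or REB1. Other DNA-binding factors and cofactors of the list were called. FHL1 was called between alleles (-0.18 ± 0.05) and in trans (0.30 ± 0.09), and IFH1 between alleles (0.25 ± 0.04). ABF1 was called in each comparison (-0.43 ± 0.08, -0.82 ± 0.05 and 0.41 ± 0.09), and CBF1 between alleles (0.45 ± 0.08). All 5 chaperones that escort single ribosomal proteins had a haploid log2 below 0, and 4 were called (80%, beside 54.6% of all genes). Among the 4 were TSR2 (-0.80 ± 0.10), which carries Rps26, and SYO1 (-0.67 ± 0.10), which carries Rpl5 and Rpl11. Between alleles 4 of the 5 were called, 1 higher and 3 lower from the S. cerevisiae allele (80%, beside 68.6%).

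Promoters of the 42 genes gave strong FAIRE counts. The 45 NFRs had a median width of 339 bp, against 234 bp for all NFRs, and ranged from 85 bp upstream of RPS0A to 817 bp upstream of RPL3. Per 100 bp, their median level was 165 to 273 CPM across the 16 tables, and that of all NFRs was 71.0 to 88.8. The 58 NFRs of other ribosomal protein genes had medians of 155 to 255. The 45 regions held between 3.24% and 5.7% of all FAIRE counts on 1.94% of the NFR length. The number of counted sites per NFR is not known, so site density is not taken out of these levels and shares. The study set NFR edges where the FAIRE count became low, so width and count are not independent. RPL3, which lines the peptidyl transferase centre, had one of the largest counts in the data (chromosome XV, 443874 to 444691). Its rank by count among 3498 NFRs, with no allowance for its width, was between 1 and 6 in every table. Per 100 bp its mean level over all tables was 477 CPM, below the 557 of RPL19B. A total of 14 of the 45 regions were also upstream of a gene outside the list, as divergent promoters share 1 region, and a difference there cannot be assigned to either gene.

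In the UWOPS05_217_3 hybrid, 20 of the 45 NFRs were called between alleles, 9 higher and 11 lower from the S. cerevisiae allele, and 24.8% of all NFRs were called. In the DBVPG1373 hybrid 30 of the 45 were called, 13 higher and 17 lower, and 29.8% of all NFRs were. The ratios of the 45 regions were measured with less error than most, with a median SE of 0.21 in the first hybrid and 0.15 in the second, against 0.36 and 0.28 for all NFRs. The size of the ratios was closer to the background: the median absolute log2 was 0.53 and 0.65, against 0.51 and 0.54 for all NFRs. Among NFRs of the other ribosomal protein genes, 20 and 27 of 58 were called. Large and small subunit genes were found in both directions. In the DBVPG1373 hybrid, 11 of 31 large-subunit NFRs were called higher and 12 lower, and 2 of 14 small-subunit NFRs higher and 5 lower.

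The hybrids have no library in common, and their ratios could be set side by side. The sign was the same for 37 of the 45 NFRs, 82.2%, and for 78.1% of all NFRs, with a Pearson r of 0.85 across the 45 NFRs and 0.67 across all, given as a description because regions are not replicates. A total of 17 were called in both hybrids, as were 580 of all 3498 NFRs, of which 575 had the same sign in both. Of these, 7 were higher from the S. cerevisiae allele in both (RPL12A, RPL14B, RPL17A, RPL18B, RPL20B, RPS7A and RPS13), 9 were lower in both (RPL5, RPL11A, RPL13B farther region, RPL17B, RPL19A, RPL21B, RPS0A, RPS2 and RPS4A), and RPS12 had opposite signs. In neither hybrid were 12 called, among them RPL3, RPS3, RPS20 and RPP0. Of all 3498 NFRs, 866 were called in the UWOPS05_217_3 hybrid, 1043 in the DBVPG1373 hybrid and 580 in both.

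**Figure D3:**
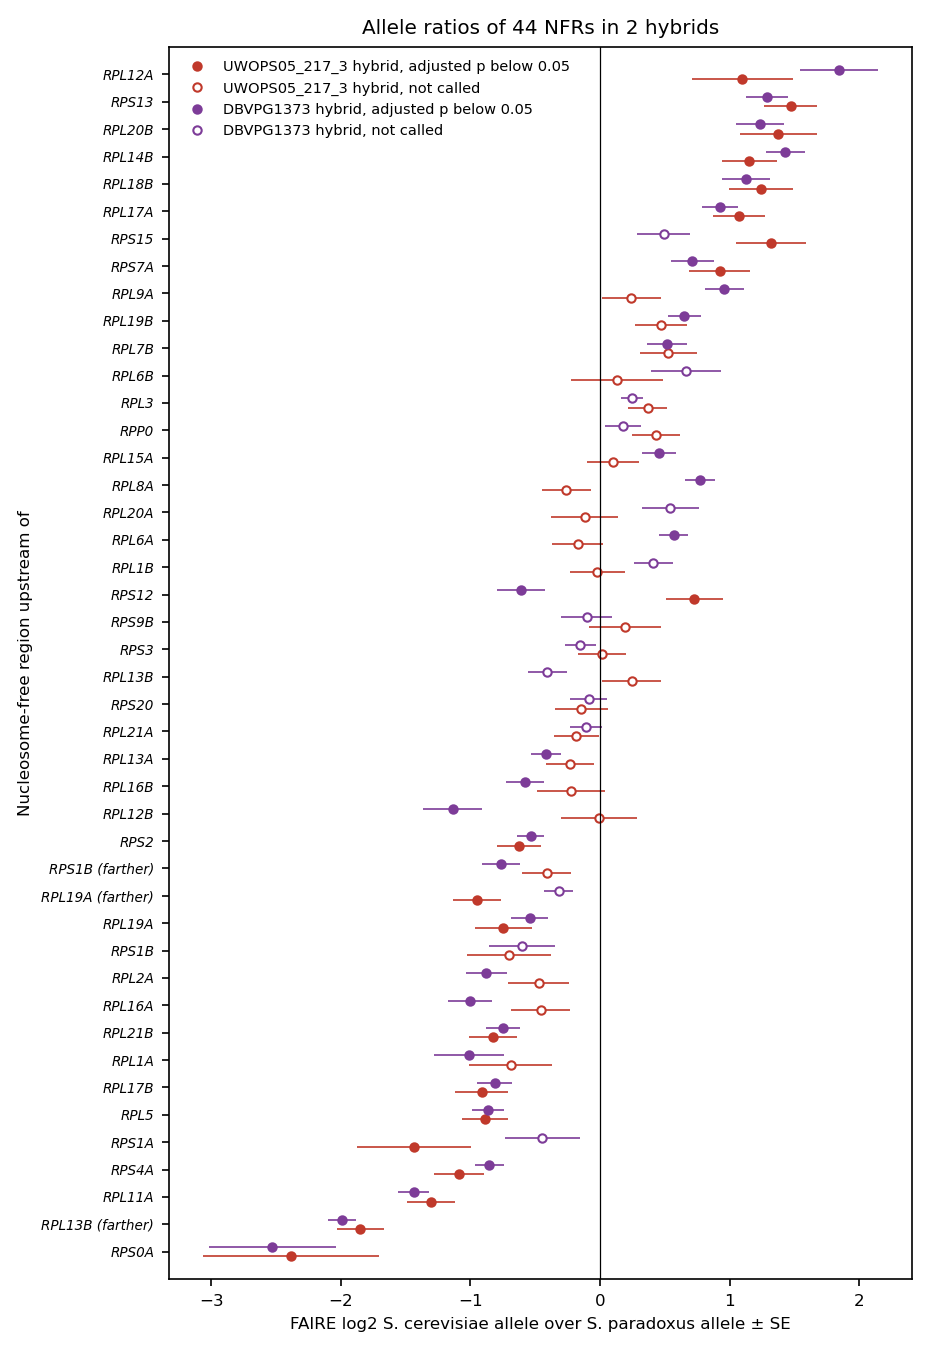
FAIRE log2 ratio of the S. cerevisiae over the S. paradoxus allele ± SE (2 libraries each) at 44 of the 45 NFRs in the UWOPS05_217_3 hybrid (red) and the DBVPG1373 hybrid (purple), ordered by the mean of both. Filled points have an adjusted p below 0.05. Of the 17 NFRs called in both hybrids, 16 have the same sign, and RPS12 lies on opposite sides of 0.

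Among regions that were more open on the S. cerevisiae allele, RPS13 (chromosome IV, 579075 to 579548) had the largest ratio in the UWOPS05_217_3 hybrid. Its S. cerevisiae allele had 1560 and 1645 CPM in the 2 libraries and its S. paradoxus allele 602 and 556. In the DBVPG1373 hybrid the values were 1815 and 1597 against 604 and 802, so the alleles were apart in all 4 libraries. The log2 was 1.47 ± 0.21 and 1.29 ± 0.16 (edgeR, adjusted p = 2.12e-10 and 0.000382). RPL20B (chromosome XV, 901037 to 901276), for a large-subunit protein, had 451 and 478 CPM against 205 and 156 in the first hybrid, and 772 and 679 against 335 and 283 in the second, with log2 ratios of 1.37 ± 0.30 and 1.23 ± 0.18. RPL14B (chromosome VIII, 103944 to 104200) had 1114 and 1722 against 689 and 563, and 1418 and 1570 against 602 and 510, with 1.15 ± 0.21 and 1.43 ± 0.15. In each of these genes the ranges of the alleles stayed apart within each hybrid.

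RPL12A (chromosome V, 53170 to 53460), for a protein at the base of the stalk, had the largest ratio in the DBVPG1373 hybrid, on low counts. Its levels there were 250 and 238 CPM against 85 and 53.9, a log2 of 1.84 ± 0.30, and in the UWOPS05_217_3 hybrid 170 and 259 against 76.0 and 126, a log2 of 1.10 ± 0.39. RPS15 (chromosome XV, 253467 to 253785), a single-copy gene of the small-subunit head, was called in the UWOPS05_217_3 hybrid, with 455 and 912 against 278 and 240 (log2 1.32 ± 0.27). That ratio was 0.71 in the first library and 1.92 in the second. In the DBVPG1373 hybrid its values were 736 and 500 against 649 and 286, which overlapped, and the log2 of 0.49 ± 0.20 was not called.

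Among regions that were less open on the S. cerevisiae allele, the largest difference on high counts was at the farther NFR of RPL13B (chromosome XIII, 551417 to 551938), which it shares with the divergent RPS16A. The S. cerevisiae allele had 878 and 763 CPM against 2409 and 3616 in the UWOPS05_217_3 hybrid, and 1056 and 734 against 4042 and 3016 in the DBVPG1373 hybrid. The log2 was -1.85 ± 0.18 and -1.99 ± 0.11 (edgeR, adjusted p = 3.04e-20 and 7.67e-06). The nearer NFR of the same gene (551058 to 551327) was called in neither hybrid, with log2 ratios of 0.24 ± 0.23 and -0.41 ± 0.15. RPL11A (chromosome XVI, 731713 to 732302), whose protein joins Rpl5 on 5S rRNA, had 841 and 1244 against 2402 and 2661, and 1102 and 919 against 2709 and 2744, with -1.31 ± 0.18 and -1.44 ± 0.12. Its region is also upstream of PRE2. RPL5 itself was lower too (chromosome XVI, 302604 to 303127), with 1223 and 1544 against 2298 and 2804, and 1128 and 1622 against 2306 and 2626. Its log2 was -0.89 ± 0.18 and -0.86 ± 0.12.

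RPS1A and RPS0A were lower on few counts. RPS1A (chromosome XII, 1018823 to 1019025) had 86.7 and 39.7 CPM against 162 and 160 in the UWOPS05_217_3 hybrid (log2 -1.44 ± 0.44), and 124 and 133 against 144 and 212 in the DBVPG1373 hybrid, where the log2 of -0.44 ± 0.29 was not called. RPS0A (chromosome VII, 920444 to 920529) had the largest ratio of all 45, with 10 and 13 raw counts against 50 and 72 in the UWOPS05_217_3 hybrid and 33 and 25 against 279 and 96 in the other. Its log2 was -2.39 ± 0.68 and -2.53 ± 0.49, and with DESeq2 the first of these was not called. The second was -3.06 from the first library alone and -1.92 from the other. RPS2, which acts in decoding accuracy, was lower on large counts, by -0.62 ± 0.17 and -0.53 ± 0.10.

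The allele ratio itself differed between the hybrids at 2 of the 45 NFRs, and at 0.429% of all NFRs. Upstream of RPS12 (chromosome XV, 1028504 to 1028934), the UWOPS05_217_3 allele had 1010 and 1040 CPM against 673 and 569 for its S. paradoxus partner. The DBVPG1373 allele had 486 and 390 against 660 and 670. The S. paradoxus allele was thus between 569 and 673 in all 4 libraries, while the alleles of the S. cerevisiae strains fell on either side of it. The log2 ratios were 0.73 ± 0.22 and -0.61 ± 0.18, and their difference was 1.34 ± 0.28 (edgeR, adjusted p = 0.017). The haploids stood in the same order, with 823 and 877 in UWOPS05_217_3, 499 and 512 in DBVPG1373, and 530 and 731 in CBS432, but neither haploid ratio was called (0.44 ± 0.34 and -0.26 ± 0.36).

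Upstream of RPL8A (chromosome VIII, 36021 to 36405), for a large-subunit protein, the UWOPS05_217_3 allele had 1196 and 1528 CPM against 1413 and 1854, and the DBVPG1373 allele had 2205 and 2706 against 1389 and 1478. The log2 was -0.26 ± 0.19, which was not called, and 0.77 ± 0.11, and the difference was -1.03 ± 0.21 (adjusted p = 0.0108). Without either UWOPS05_217_3 hybrid library or DBVPG1373 hybrid replicate 2, 0 of these calls held, and without DBVPG1373 hybrid replicate 1 that of RPS12 held. The differences then ran from 1.17 to 1.51 for RPS12 and from -1.13 to -0.93 for RPL8A. Over the NFRs of the whole data few such differences would be found: on simulated counts with a log2 difference of 1, 5.5% of changed NFRs were. The median SE of this difference was 0.26 for the 45 and 0.46 for all NFRs, and the reach at the 45 alone was not simulated.

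Between UWOPS05_217_3 and CBS432 haploids, 14 of the 45 NFRs were called, 7 in each direction, and 20.4% of all NFRs were. Those higher in UWOPS05_217_3 included RPL12A, RPL17A, RPL18B, RPS7A, RPS13 and RPS15, and lower were RPL1A, RPL11A, RPL13B farther region, RPL17B, RPS0A, RPS1A and RPS1B. RPL12A had 155 and 177 CPM in UWOPS05_217_3 and 70.4 and 49.1 in CBS432 (log2 1.51 ± 0.39). RPL17A (chromosome XI, 108792 to 109239), for a protein at the peptide exit tunnel, had 1038 and 1492 against 384 and 567 (1.43 ± 0.38), and RPS13 had 1067 and 1710 against 522 and 653 (1.27 ± 0.39). In the other direction, the farther NFR of RPL13B had 584 and 763 against 1774 and 2987 (-1.81 ± 0.44), RPL11A had 567 and 794 against 1795 and 2499 (-1.64 ± 0.42), and RPS1A had 75.1 and 61.2 against 189 and 172 (-1.39 ± 0.38). In each of these 6 the strains did not overlap. RPS0A had 9 and 55 raw counts against 80 and 232, and without CBS432 replicate 2 its log2 was -1.70 and not called.

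Fewer of the 45 NFRs and fewer of all NFRs were called when a haploid replicate was left out, while all 14 kept their sign in every pairing of replicates. The direction followed the replicate left out. Without UWOPS05_217_3 replicate 1, the median log2 of the 45 was 0.19, beside -0.01 for all NFRs. Without UWOPS05_217_3 replicate 2, it was -0.30, beside -0.01 for all NFRs. Calls were then lost at RPL12A, whose log2 was 1.34, RPS1A (-1.31), RPL17A (1.07) and RPS13 (0.81). Without CBS432 replicate 1 the median of the 45 was -0.12, and without CBS432 replicate 2 it was 0.23, beside 0.01 for all NFRs in both. Without CBS432 replicate 2, calls were lost at RPS13, whose log2 was 1.53, RPL12A (1.35), RPL11A (-1.29) and the farther region of RPL13B (-1.29). The share of FAIRE counts in the 45 regions was 3.34% and 4.16% in the UWOPS05_217_3 replicates and 3.53% and 4.56% in the CBS432 replicates, so that in each strain the second replicate had the stronger signal. With the replicate number as a block, which takes out a shift shared by same-numbered replicates, 26 of the 45 were called, 13 in each direction, the 14 among them. With this block 1010 of all 3498 NFRs were called, against 712 without it.

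Between DBVPG1373 and CBS432 haploids, 1 of the 45 NFRs was called, RPL12A, and 8.23% of all NFRs were. It had 151 and 262 CPM in DBVPG1373 and 70.4 and 49.1 in CBS432, which are the CBS432 libraries of the other comparison (log2 1.90 ± 0.45, edgeR, adjusted p = 0.0212). With an unadjusted p below 0.05 there were 15, and DESeq2 called 7, beside 895 and 474 of all 3498 NFRs. Beside 736 of all NFRs, 16 of the 45 were called with the replicate number as a block, 10 of them higher in DBVPG1373. Among the 45, calls rose without either DBVPG1373 replicate. RPL12A itself was not called without DBVPG1373 replicate 2 (log2 1.28), CBS432 replicate 1 (2.1) or CBS432 replicate 2 (1.74). The median log2 of the 45 was 0.36 without DBVPG1373 replicate 1 and -0.22 without replicate 2, beside -0.04 and -0.02 for all NFRs. It was -0.155 without CBS432 replicate 1 and 0.32 without CBS432 replicate 2, beside 0.02 for all NFRs in both. Over all NFRs, calls also rose without either DBVPG1373 replicate and fell without either CBS432 replicate. The share of FAIRE counts in the 45 regions was 3.24% and 4.79% in the DBVPG1373 replicates. The DBVPG1373 replicates differed at many of these regions. RPS3, for a protein at the mRNA entry, had 499 and 1483 CPM in them, and RPL14B 663 and 1737.

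Haploid and allele ratios come from separate libraries. In the UWOPS05_217_3 cross 39 of the 45 NFRs had the same sign in both, 86.7%, beside 80.6% of all NFRs, and in the DBVPG1373 cross 40 had, 88.9%, beside 80.0%. All 14 NFRs called between UWOPS05_217_3 and CBS432 haploids had the same sign in the hybrid, and 11 of them were called there. Of all 712 NFRs called between these haploids, 702 had the same sign in the hybrid and 470 were called there. RPL1A and RPS1B were among those not called there. Called in the haploids and in both hybrids were 9 NFRs: RPL12A, RPL17A, RPL18B, RPS7A and RPS13 higher, and RPL11A, RPL13B farther region, RPL17B and RPS0A lower. NFRs called in all of these comparisons were not counted over the whole data, so the 9 have no background here.

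**Figure D4:**
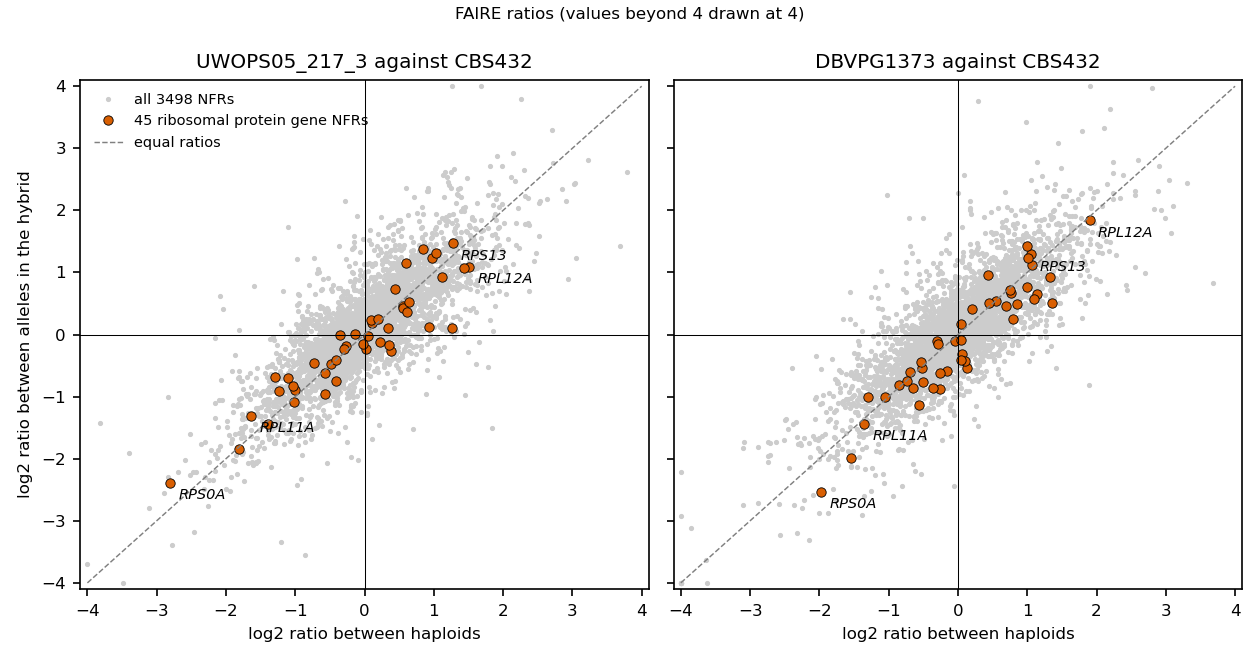
FAIRE log2 ratio between alleles in the hybrid against that between haploids, for UWOPS05_217_3 (left) and DBVPG1373 (right) with CBS432. Orange points are the 45 NFRs, grey points all 3498, and the dashed line marks equal ratios. The 45 NFRs lie along the line in both crosses, with 39 and 40 of the same sign.

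None of the 45 NFRs was called in trans in either cross by edgeR, where 0.0572% of all NFRs were called in the UWOPS05_217_3 cross and 0% in the other. DESeq2 called 0 as well. With an unadjusted p below 0.05 there were 2 in the first cross and 0 in the second. The test had little reach over the NFRs of the whole data, where 3% and 10% of those with a simulated log2 change of 1 were found. The 45 had a smaller median SE, 0.32 and 0.30 in the 2 crosses against 0.46 and 0.45 for all NFRs. The reach at the 45 alone was not simulated.

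For 10 duplicated genes both copies had an NFR, and these are shown side by side; differences between copies were not tested. The copies of RPL17 lay on opposite sides of 0 in both hybrids and in every library. RPL17A had allele ratios of 1.07 and 1.07 in the UWOPS05_217_3 hybrid libraries and 0.75 and 1.11 in the other hybrid, whereas RPL17B had -1.20 and -0.63, and -0.71 and -0.91. RPL17B shares its NFR with ATG27. RPL19A had ratios below 0 and RPL19B above 0 in all 4 libraries, with fitted ratios of -0.75 and 0.47 in the first hybrid and -0.54 and 0.65 in the second. These regions do not match in position: their centres lay 4 bp from the start codon for RPL19A and 338 bp for RPL19B. RPL19B shares its NFR with YBL028C. RPL12A was higher in both hybrids, and RPL12B had -0.01 in the first, where its libraries disagreed (0.54 and -0.54), and -1.14 in the second. The copies of RPL16, RPL21 and RPS1 had fitted ratios below 0 in both hybrids.

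**Figure D5:**
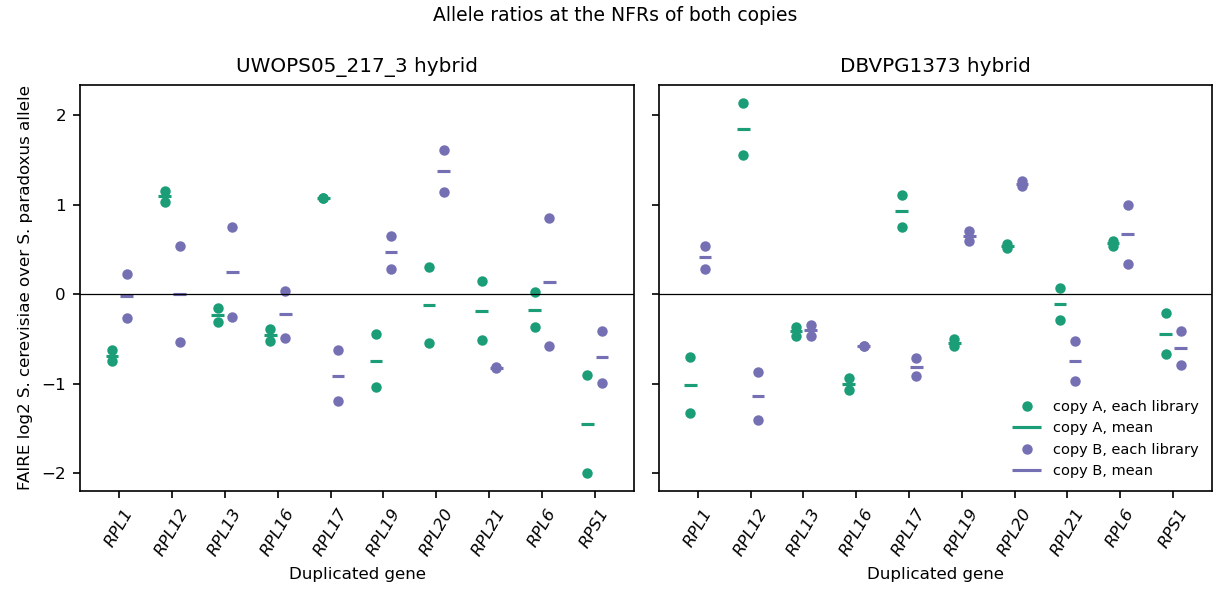
FAIRE log2 ratio of the S. cerevisiae over the S. paradoxus allele at the NFRs of both copies of 10 duplicated genes, in the UWOPS05_217_3 hybrid (left) and the DBVPG1373 hybrid (right). Points are the 2 libraries and bars their mean. RPL17 and RPL19 have 1 copy on each side of 0 in all 4 libraries.

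For the 7 genes with both measurements, accessibility and RNA in the UWOPS05_217_3 hybrid had the same sign for 1, beside 49.5% of 3433 pairs of genes and NFRs. Between the UWOPS05_217_3 and CBS432 haploids the sign was the same for 3 of the 7, beside 50.9% of these pairs, and 0 of the 7 were called in both assays. The values that follow are from the hybrid. RPS13 had the largest contrast, with a FAIRE allele ratio of 1.47 ± 0.21 and an RNA allele ratio of -0.13 ± 0.03. RPS12 had 0.73 ± 0.22 and -0.16 ± 0.02, RPP0 0.43 ± 0.19 and -0.16 ± 0.02, and RPL6B 0.13 ± 0.36 and -0.43 ± 0.04. RPL5 had -0.89 ± 0.18 and 0.03 ± 0.02, and RPS20 had -0.14 ± 0.21 and 0.04 ± 0.04. RPS13 and RPS12 were called in both assays, with opposite signs. The RNA ratios were the smaller for 6 of these 7, and RPS12 and RPS20 are among the genes whose RNA counts did not follow the table total.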

How the data were processed

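Tables of 20 samples in 10 groups were deposited. As deposited by the authors, 24 of the tables hold whole-number counts summed per gene or NFR with no normalization, and 8 RNA tables of the DBVPG1373 cross were not used. The authors mapped reads with BWA, after CASAVA, to strain assemblies and for hybrids to both genomes, and counted at divergent sites; versions were not stated. A read that covers several sites may be counted more than once. Coordinates are as deposited, with sacCer3 given in the submitters' notes. RNA starts and ends were within 2 bp of the RefSeq R64 table for 4573 of 4596 genes matched, and gene names are from that table. Whether NFR starts count from 0 or 1 is not stated.

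The members and gene lists were chosen with earlier results of these data known. Counts were tested with edgeR 4.0.16 in R 4.3.3 (TMM between haploids, 1 library size for both alleles, total counts and the replicate number as a block for trans), with Benjamini-Hochberg adjustment over all features. RNA genes needed a mean count of 10. Levels are CPM (counts per 1000000) relative to the table total, or to the mean of both allele totals in hybrids. Per-library ratios used a pseudocount of 0.5. On simulated data with a log2 change of 1, 98.5%, 94.5% and 95.5% of RNA changes were found (haploid, allele, trans), and 24%, 8.5%, 36% and 51% of FAIRE changes (haploids of both crosses, alleles of both hybrids). Unchanged features made up more than 5% of the simulated calls for RNA between haploids (9.22%) and in trans (5.91%), and for FAIRE between UWOPS05_217_3 and CBS432 haploids (5.88%) and in trans (14.3% and 16.7%).

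Features named with full values were the up to 4 genes or 3 NFRs a direction with the largest called change, a mean count of at least 100 and the same sign in every pairing, and single-copy genes on which a result turns; others were named after their values were seen. Groups of 2 were too small for a test of outlying samples. An exact test of 2 against 2 replicates cannot reach 0.05. Alternatives were DESeq2 1.42.0, other scalings, other filters, the replicate block, the nearest NFR alone and leaving out each library. Promoter sequences and motifs were not analysed here. Values of 2 genes, though counted in the totals and fits, are not reported here.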

Additional observations from a re-analysis of the deposited data

Results flagged for a closer look

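The allele ratio at the NFR of RPS12 was looked at again because it differed between the hybrids by a test of the difference itself. The ratio in the UWOPS05_217_3 hybrid minus that in the DBVPG1373 hybrid was 1.34 in log2 (SE 0.28, edgeR, adjusted p = 0.017), and each pairing of libraries had this sign. The same test gave -1.03 (SE 0.21, adjusted p = 0.0108) at the NFR of RPL8A. In RNA, the ratio of RPP0 between haploids differed from that between alleles by 0.32 (SE 0.10, adjusted p = 0.0369), with the same sign in every pairing of a haploid pair and a hybrid library.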

How the results depend on the processing

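RNA between haploids gave 1 of 9 calls under every alternative except leaving out replicates, where the range was 1 to 4. RNA in trans gave 0 without the replicate block and 0 to 8 when a library was left out. FAIRE between UWOPS05_217_3 and CBS432 gave 26 of 45 with the replicate block, against 14, and 5 to 11 when a replicate was left out. FAIRE between DBVPG1373 and CBS432 gave 7 with DESeq2, 4 with total counts (2 in each direction) and 16 with the replicate block, against 1, and 0 to 12 when a replicate was left out. The difference between hybrids gave 0 or 1 of 45 without 1 library, against 2. The correlation of deviations of same-numbered replicates was 0.22 for RNA and 0.17 and 0.27 for FAIRE, and 2 pairs are too few to show from this whether the numbers pair the samples. The replicate number was a block in the trans fits, on which the call of RPP0 depended, and not in the main haploid fits. With this block, FAIRE calls between haploids over all NFRs rose too, from 712 to 1010 with UWOPS05_217_3 and from 288 to 736 with DBVPG1373. Without the 5 genes with the most counts, the mean share of the 9 genes in UWOPS05_217_3 was 1.08%, against 1.05%.

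Per-feature values were recomputed for the RNA genes and the called NFRs, and among these the signs that turned were of RNA ratios that were not called. When a haploid replicate was left out, the haploid ratio ran from -0.26 to 0.0053 for RPS13, from -0.40 to 0.26 for RPS20, from -0.65 to 0.19 for RPL10, from -0.38 to 0.22 for RPS12 and from -0.057 to 0.34 for RPP0. In trans, when any library was left out, it ran from -0.12 to 0.16 for RPS13, from -0.31 to 0.13 for RPS20, from -0.37 to 0.34 for RPL10 and from -0.15 to 0.33 for RPS12. With the replicate block, leaving out a haploid replicate also took the comparison from its same-numbered partner. The direction in trans followed the replicate number left out. The median trans log2 of the 9 genes was 0.13 without either haploid replicate 1 and -0.22 without either haploid replicate 2. It was -0.09 without either hybrid library. For all genes the median was 0.07 in each of these fits. Each fit had 1 library in a group, so its number of calls among the 9 genes is not read as a result. RPS13 in trans was -0.053 with TMM. The causes were not tested. TMM moved the median of all NFRs in trans from -0.10 to 0.00 in the UWOPS05_217_3 cross and from -0.16 to -0.0031 in the other, with 0 calls among the 45. Leaving out a hybrid library left no test between alleles, and each ratio is then that of 1 library. The median FAIRE log2 of the 45 NFRs ran from -0.30 to 0.23 between UWOPS05_217_3 and CBS432 when a replicate was left out (0.06 with all), and was -0.28 and 0.02 in single libraries of the UWOPS05_217_3 hybrid. Between haploids the median SE of the 45 was 0.38 and 0.44 in the 2 crosses.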
